A study of Mus musculus with 17 samples.

Results

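The 9 genes of the postsynaptic scaffold described here, Homer1, Homer2, Homer3, Shank1, Shank2, Shank3, Dlg4, Dlgap1 and Baiap2, were measured in mice exposed to chronic unpredictable stress (CUS) and in unstressed controls. They were chosen by name from a list, and all 9 were found by symbol among the 36293 genes of the bulk files and the 37608 genes of the single-nucleus files. Homer1 was put in the list because of its lower bulk value in CUS mice, so the bulk differences of the members are read as a description only, and counts of members past a threshold there stand only beside the share of all genes. All mice were C57BL/6 (C57Bl/6J in the study's methods). CUS mice had 3 stressors a day for 12 days from an age of 9 to 10 weeks. Neocortex for single nuclei was taken 24 h after the last stressor, whereas the mice for bulk RNA-seq first went through behavioural tests and were taken 24 h after the last of these. Control mice lived in another room and were handled each day. Bulk nuclear RNA-seq covered the medial prefrontal cortex (mPFC) of 4 control and 5 CUS male mice at postnatal day 90, and sNucDrop-seq, a droplet method that counts the transcripts of single nuclei, covered the neocortex of 4 other control and 4 other CUS mice at postnatal day 80. The study gives the sNucDrop-seq mice as adult males as well.

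The postsynaptic density is the protein mesh under the membrane of the excitatory synapse, where it holds glutamate receptors beside the enzymes and actin filaments they act on. It is built in layers. PSD-95, the product of Dlg4, sits nearest the membrane and binds glutamate receptors. GKAP, the product of Dlgap1, links PSD-95 to the Shank proteins, and Shank and Homer proteins form the deeper mesh. Homer proteins also bind the IP3 receptor of the endoplasmic reticulum. IRSp53, the product of Baiap2, binds PSD-95 and Shank and shapes the actin of the dendritic spine.

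Homer1 makes products of opposite effect from a single gene, and the sequences below show where they part. The gene lies on the plus strand at chr13:93299635-93405129 of GRCm38 (mm10), where GENCODE M21 lists 12 transcripts, of which 11 are coding and 8 pass through a shared coding exon that ends at base 93356079. Each line gives the last 30 bases of that exon (chr13:93356050-93356079) in lower case and the 34 bases that follow in the transcript in capitals, 5′ to 3′.
Homer1-204: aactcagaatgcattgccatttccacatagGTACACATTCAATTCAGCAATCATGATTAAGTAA
Homer1-205: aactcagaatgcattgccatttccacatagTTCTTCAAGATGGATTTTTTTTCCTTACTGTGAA
Homer1-201: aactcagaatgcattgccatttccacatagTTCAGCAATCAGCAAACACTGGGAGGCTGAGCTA
Homer1-203: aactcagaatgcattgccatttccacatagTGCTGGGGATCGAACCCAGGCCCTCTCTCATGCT
Homer1-204 is the short form known as Homer1a. It reads on into the intron directly after the exon, from base 93356080, has 31 more coding bases before its stop codon and encodes 186 amino acids. Homer1-205, the short form known as Ania-3, continues at base 93366243 and encodes 203. The long forms Homer1-201 (354 amino acids) and Homer1-203 (366 amino acids) continue at bases 93387524 and 93386345. The long forms carry a coiled coil by which Homer proteins join to each other, while Homer1a lacks it, is made in active neurons and uncouples the partners of the long forms. The deposited values count reads or UMIs (unique molecules) per gene, so a Homer1 value sums all these forms and none of the results below can be assigned to one of them.

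Homer1 is known as a gene that neuronal activity induces, so the 250 bases before the first of its start sites in the promoter table (chr13:93303507-93303756, plus strand, sequence from RefSeq, GRCm38.p6) are shown, and the capitals mark TGACG, the core of the element bound by CREB. The start site that follows, base 93303757, is where Homer1-207 begins in GENCODE, while Homer1-204 begins further on, at base 93304495.
Homer1 promoter: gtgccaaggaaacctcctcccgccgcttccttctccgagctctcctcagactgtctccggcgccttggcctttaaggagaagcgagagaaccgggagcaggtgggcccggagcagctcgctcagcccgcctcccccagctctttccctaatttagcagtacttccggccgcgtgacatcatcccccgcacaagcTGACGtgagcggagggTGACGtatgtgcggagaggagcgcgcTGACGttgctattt
TGACG stood 56, 40 and 14 bases before the start site. The search covered TGACG and its reverse complement CGTCA. Of the 32851 RefSeq promoters of this length, 17.8% held at least 1 match and 0.688% held 3 or more. The promoter shown was taken as the Homer1 promoter with the most matches, so nothing is read from its count beside these shares. The table held 12 promoters for 7 of the 9 genes, without Shank1 and Shank2. The other Homer1 promoter in it, before base 93308034, had 0 matches. Outside Homer1, 1 promoter of Dlg4 had 1 match and the other members none. Of the activity-regulated genes described further on, Nr4a1, Nr4a2 and Nr4a3 had 4 matches each, Fos, Egr4 and Npas4 had 2, Fosb and Junb had 1 and Fosl2 had 0. Of the 7 promoters of Bdnf, 1 had 1 match and 6 had 0, and Egr1, Egr3, Arc, Nptx2 and Vgf had no promoter in the table. A match in these letters is a description of the sequence and says nothing of binding.

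The other members lie at chr7:81600481-81707527 (Homer2, minus strand), chr8:70282827-70294361 (Homer3), chr7:44310253-44360572 (Shank1), chr7:144001928-144424494 (Shank2), chr15:89499623-89560261 (Shank3), chr11:70016942-70047522 (Dlg4), chr17:69969073-70821413 (Dlgap1) and chr11:119942763-120006782 (Baiap2), all but Homer2 on the plus strand. Genes on the opposite strand overlap 6 of them. Beside Homer3, which had 50 to 76 reads per mouse in bulk, Ddx49 had 253 to 344. The genes opposite Homer2, Shank1, Shank2, Shank3 and Dlgap1 had at most 29 reads. The bulk library kit marks the strand, but whether the counting used it is not stated, so Homer3 values in particular are uncertain.

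Bulk libraries held 26188825 to 30525015 reads on genes. The nuclei that passed the filters numbered 26730, 1930 to 4235 per mouse, with 4680945 to 12477099 UMIs per mouse, and 20 cell barcodes among them occurred in more than 1 library. Excitatory neuron markers summed to 1936 to 2537 CPM (read counts scaled to a common library total) in control and 2659 to 2759 CPM in CUS bulk samples, so the mPFC samples held the RNA of these neurons. They also held striatal markers, at 685 to 1192 CPM in control and 1170 to 1412 CPM in CUS mice, and oligodendrocyte precursor markers, at 497 to 604 CPM in control and 390.1 to 464 CPM in CUS mice. In bulk tissue, a smaller number of cells of a type and less RNA per cell cannot be told apart. In the nuclei, 1798 were of a Striatal-like class, in tissue labelled as cortex.

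In the bulk mPFC, Homer1 was the member with the clearest separation between groups. Its level was 590.1, 632, 520.0 and 507 CPM in the 4 control mice. It was 462, 413, 499, 438 and 401 CPM in the 5 CUS mice. Every CUS mouse lay below every control mouse, and the closest were 499 and 507 CPM. The means were 562 ± 59.3 (SD, n = 4) and 442 ± 39.4 (SD, n = 5), a log2 fold change of -0.35 (SE 0.08). Between 10462 and 18758 reads per mouse stood behind these values. Homer1 was the 1 of 9 members past an FDR of 0.05 in edgeR's quasi-likelihood test, beside 3.29% of the 18394 genes tested, and the 1 member with all CUS mice below all controls, beside 4.7% of genes. Homer1 was chosen on this contrast, so nothing is read from either count. It was no longer past the FDR with the replicate numbers as a block (log2 fold change -0.31), nor in 6 of the 9 fits that left out 1 mouse. Over all 9 of these fits the FDR ran from 0.0158 to 0.130 and the log2 fold change from -0.39 to -0.28. In each CUS mouse Homer1 was below the control mean, while the marker sums given above also differed between the groups: at the FDR of 0.05, 2 of 6 precursor markers fell, 1 of 10 striatal and 1 of 5 excitatory markers rose. Layer 4 markers summed to 422 to 552 CPM in control and 309.6 to 449 CPM in CUS mice, with 1 of 6 lower, and Opalin oligodendrocyte markers to 295 to 696 and 309 to 392 CPM, with 1 of 7 lower. Also lower were 2 of 6 astrocyte markers (sums of 1827 to 2245 and 1714 to 1976 CPM), 2 of 5 Enpp6 oligodendrocyte markers (364 to 428 and 339 to 372 CPM) and 2 of 5 claustrum markers, B3gat2 and Nr4a2, of which Nr4a2 is also among the activity-regulated genes described further on. The claustrum sums overlapped (184 to 229.5 and 189 to 264 CPM), with means of 210.3 and 214 CPM. In addition 1 Inh_Vip marker was higher, 1 Inh_Ndnf marker was higher and 1 lower, and 1 of the 3 choroid plexus markers tested was lower (mean sums of 3.89 and 2.41 CPM). The remaining lists had 0 called. Their part in the Homer1 value was not tested.

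The other Homer genes did not separate the groups. Homer2, whose product builds the same kind of scaffold as the long forms of Homer1, had 48.0 to 74.5 CPM in control and 61.6 to 73.8 CPM in CUS mice (log2 fold change 0.07, SE 0.11). Homer3 was the lowest of the members, with 50 to 76 reads per mouse, at 1.89 to 2.76 CPM in control and 1.95 to 2.70 CPM in CUS mice (-0.09, SE 0.15).

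Shank2 had the largest difference after Homer1, in the opposite direction. Its level was 236, 279.9, 384 and 220.2 CPM in control mice. It was 367, 335, 327, 328 and 336 CPM in CUS mice (log2 fold change 0.27, SE 0.13). All 5 CUS mice were above the control mean of 279.9 ± 73.9 CPM (SD, n = 4), but control mouse 3 was above them all. The same mouse was the highest control for Shank1 at 121 CPM beside 45.1 to 71.6 CPM in the other controls and 73.4 to 85.6 CPM in CUS mice. It was also the highest control for Shank3 (129 CPM beside 88.1 to 104), Dlg4 (109 CPM beside 59.4 to 69.95) and Baiap2 (286 CPM beside 195 to 248). CUS mice had 98.5 to 109 CPM of Shank3, 75.4 to 87.1 CPM of Dlg4 and 239 to 280.2 CPM of Baiap2. With all 9 mice the log2 fold changes were 0.14 (SE 0.21) for Shank1, 0.00 (SE 0.09) for Shank3, 0.08 (SE 0.14) for Dlg4 and 0.10 (SE 0.09) for Baiap2. Without control mouse 1, that of Baiap2 was 0.01.

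Control mouse 3 differed from the other controls in more than these genes. In it, genes in the tertile with the highest GC content exceeded those in the lowest tertile by 0.10 on the log2 scale relative to the mean of all mice, while the other controls were at -0.15 to -0.07 and CUS mice at -0.06 to 0.12. Shank1 (61.4% GC in its longest transcript), Shank3 (62.4%), Baiap2 (57.7%) and Shank2 (55.0%) lie in the highest tertile. Dlg4 (46.8%) lies in the middle tertile and Homer1 (36.9%) in the lowest. The part of GC content in the members' values was not tested. Without control mouse 3, the fold changes were 0.48 for Shank1, 0.46 for Shank2, 0.29 for Dlg4 and -0.39 for Homer1, and these 4 members passed the FDR, beside 8.1% of 18625 genes. The members were chosen with this contrast in view, so nothing is read from that count either.

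Dlgap1 was the most abundant member, at 1761, 1902, 1771 and 1484 CPM in control and 1772, 2047, 1883, 1693 and 1714 CPM in CUS mice, and the groups overlapped (log2 fold change 0.07, SE 0.08). Levels can be compared between genes only per length. Per kilobase of exon, the mean bulk level was 99.5 CPM for Dlgap1, 50.6 for Baiap2, 41.4 for Homer1, 29.0 for Shank2, 11.3 for Shank3, 7.38 for Shank1, 5.93 for Dlg4, 5.26 for Homer2 and 0.669 for Homer3. Nuclear RNA holds much unspliced transcript, and per kilobase of the whole gene the order was another, led by Homer1 at 4.70 CPM, Baiap2 at 3.95, Dlg4 at 2.57 and Dlgap1 at 2.09. Whether intronic reads were counted is not stated.

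**Figure D1:**
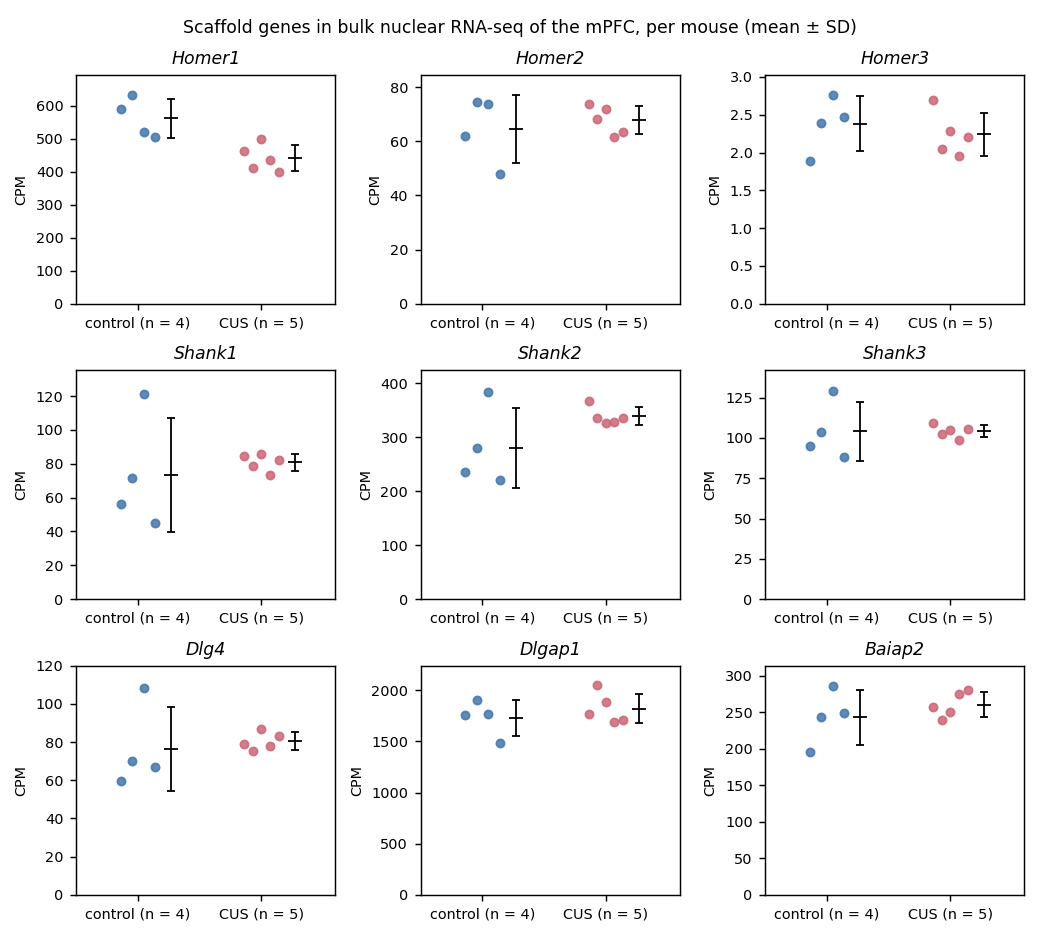
Level of each scaffold gene in bulk nuclear RNA-seq of the mPFC, in CPM with TMM scaling, for 4 control mice (blue) and 5 CUS mice (red), with the mean ± SD beside the points. Homer1 is the panel in which all CUS points lie below all control points; in the panels of Shank1, Shank2, Shank3, Dlg4 and Baiap2 the highest control point is mouse 3.

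The nuclei came from other mice, and the same genes were tested there. The genes were chosen with earlier results of these data known, so the nuclei are not an independent test of them. The study's methods report a strong batch effect in the nuclei and describe a pair of batches, with control and CUS mice in each, and a batch term. The labels do not say which mouse was in which batch, so the fits here have no such term. With all nuclei of a mouse summed, 8 of the 9 genes passed the filter on low counts, and Homer3 did not. All 8 fold changes were above 0, with a median of 0.21 on the log2 scale beside -0.00 over the 5022 genes tested, and none passed an FDR of 0.2 in edgeR's quasi-likelihood test, beside 0.0199% of genes called. By the likelihood ratio test of edgeR and by DESeq2 the count of members was 0 as well. At an unadjusted p below 0.05 there were 5 members, Homer1, Shank1, Shank2, Dlg4 and Baiap2, beside 8.44% of genes.

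Homer1 was not lower in the nuclei of CUS mice. Here CPM are the summed UMIs of the genes tested, with TMM scaling. Its level was 206, 264, 283 and 201 CPM in control mice. It was 278, 278, 315 and 331 CPM in CUS mice. All 4 CUS mice were above the control mean and 1 control mouse lay between them, and the log2 fold change was 0.33 (SE 0.12, edgeR FDR 0.587). In Excitatory-like nuclei alone, Homer1 had 213 to 294 CPM in control and 296 to 365 CPM in CUS mice (0.40, SE 0.12, edgeR FDR 0.514). The sign was opposite to that in the bulk mPFC. The assays differed in mice, age, behavioural testing before sampling, time since the last stressor, piece of cortex and chemistry, which cannot be told apart, and the difference between them was not tested.

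In the summed nuclei, 3 members had CUS mice entirely above control mice, beside 2.11% of genes. Dlg4 had 68.9, 69.1, 76.3 and 76.4 CPM in control and 105, 88.2, 81.4 and 89.5 CPM in CUS mice (log2 fold change 0.33, SE 0.10, edgeR FDR 0.587). Shank2 had 82.2, 95.2, 92.2 and 86.7 CPM in control and 98.5, 99.5, 101 and 115 CPM in CUS mice (0.22, SE 0.09, edgeR FDR 0.587). Baiap2 had 225, 196, 209 and 197 CPM in control and 257, 235, 229 and 234 CPM in CUS mice (0.21, SE 0.08, edgeR FDR 0.587). None of the 3 passed the threshold. The mean shares of some classes differed between the groups, but the ranges of the classes given here overlapped. Whether the shares differed was not tested. For its own clusters, the paper reports largely similar shares in both groups and concludes that CUS did not change the cellular make-up of the neocortex. Striatal-like nuclei, in which Baiap2 was highest and Dlg4 among the highest, made up 7.33 to 10.0% of nuclei in control and 2.44 to 8.82% in CUS mice, Ex_L4-like nuclei 9.56 to 12.3% and 11.6 to 13.5%, and Ex_L2/3_Enpp2-like nuclei a mean of 13.1% and 14.3%. In Excitatory-like nuclei alone the fold changes were 0.32 (SE 0.11) for Dlg4, 0.21 (SE 0.09) for Shank2 and 0.30 (SE 0.09) for Baiap2, each at an edgeR FDR of 0.514. The remaining genes overlapped between groups: Shank1 at 54.2 to 79.7 against 72.5 to 111 CPM (0.38, SE 0.15), Homer2 at 51.8 to 57.1 against 53.6 to 69.0 CPM (0.13, SE 0.10), Shank3 at 71.7 to 99.0 against 69.2 to 115 CPM (0.06, SE 0.15) and Dlgap1 at 1921 to 2194 against 1823 to 2598 CPM (0.03, SE 0.13).

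The number of calls in the summed nuclei turned on CUS mouse 2. Without it, 16.6% of 5126 genes passed the FDR of 0.2, and 5 members did: Shank1 (0.44), Homer1 (0.36), Dlg4 (0.34), Shank2 (0.23) and Baiap2 (0.21), while Shank3 (-0.10) and Dlgap1 (-0.11) turned below 0. Without CUS mouse 1 no member passed, as with all mice, and the fold change of Shank1 was then 0.23. The edgeR FDR in that fit was 0.972 for Homer1, Homer2, Shank1, Shank2, Dlg4 and Baiap2 alike, so it is no property of a single gene. Mouse 2 was the highest for Dlgap1, at 2598 CPM beside 1823 to 1966 CPM in the other CUS mice, and for Shank3, at 115 CPM beside 69.2 to 81.7 CPM. In the summed nuclei, genes also moved with their GC content: the median log2 fold change was -0.07 in the lowest tertile and 0.09 in the highest. It moved with gene length too, from 0.08 in the shortest tertile to -0.08 in the longest. By mouse, relative to the mean of all mice, the highest GC tertile exceeded the lowest by 0.26 in CUS mouse 1. This GC difference was -0.01 to 0.07 in the other CUS mice and -0.17 to -0.03 in controls. The longest genes stood above the shortest by 0.19 in CUS mouse 2 and by -0.39 in CUS mouse 1. For length, the other CUS mice were at -0.10 and -0.01 and controls at -0.05 to 0.24. CUS mouse 1 was also the highest mouse for Shank1 (111 CPM), Dlg4 (105 CPM) and Baiap2 (257 CPM). The part of GC content and length in the members' values was not tested.

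The study followed up layer 2/3 excitatory neurons marked by Enpp2, and a class of 3683 nuclei (257 to 659 per mouse) led by Nectin3, Rasgrf2, Lamp5, Cux2 and Enpp2 took this name. In it Baiap2 rose. Baiap2 had 224, 195, 215 and 214 CPM in control mice. It had 326, 275, 275 and 299.7 CPM in CUS mice. The lowest CUS mouse stood well above the highest control, and the means were 212 ± 12.1 (SD, n = 4) and 294 ± 24.2 (SD, n = 4), a log2 fold change of 0.48 (SE 0.12, edgeR quasi-likelihood FDR 0.0895). It was the 1 of 8 members tested past an FDR of 0.2, beside 0.838% of 5368 genes, and the 1 with no overlap in this direction, beside 2.94%. The call held in 12 of 17 alternatives, with FDR from 0.0217 to 0.368, and was lost without a filter on low counts (FDR 0.294) and when control mouse 2 (0.368), control mouse 4 (0.228), CUS mouse 1 (0.241) or CUS mouse 4 (0.300) was left out of the edgeR fit. When each nucleus was thinned to 1000 UMIs, 16.4 ± 0.730% of nuclei in control mice and 23.5 ± 3.24% in CUS mice (SD, n = 4 each) had a Baiap2 UMI, beside 37.5 ± 3.10% and 46.2 ± 5.12% without thinning. In Inhibitory-like nuclei, the thinned share over all mice was 3.29%. Thinning left 1670 control and 1811 CUS nuclei, the shallower ones being left out.

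In the same nuclei, no tested marker of another cell type passed the FDR of 0.2 in either direction, while 1 of 5 excitatory markers was higher. No marker of the Inhibitory, Inh_Pv, Microglia, Endothelial, choroid plexus, Ex_L5, Ex_L5/6 or Ex_Tshz2 lists could be tested there, and most other lists had 1 or 2 markers tested. Baiap2 was highest in Striatal-like nuclei (below), and in the layer 2/3 class the striatal markers summed to 439 to 516 CPM in control and 504 to 837 CPM in CUS mice, from 3 of 10 markers, so the groups overlapped, and the defining Drd1, Drd2 and Adora2a below the filter. The class's own markers summed to 1568 to 1784 CPM in control and 1286 to 1571 CPM in CUS mice, with 0 of 5 called. Their part in the Baiap2 value was not tested. The GC content moved with this result as well: in layer 2/3 nuclei the median log2 fold change was -0.07 in the lowest tertile and 0.13 in the highest, in which Baiap2 lies, and its part was not tested. By mouse, the highest tertile exceeded the lowest by 0.30 in CUS mouse 1, which had the most Baiap2 (326 CPM). The difference was -0.03 to 0.09 in the other CUS mice and -0.20 to -0.04 in controls. Of the members tested here that have a higher GC content than Baiap2, Shank3 had a fold change of -0.11 (SE 0.15) and Shank1 of 0.39 (SE 0.17).

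Homer1 in the layer 2/3 class had 272, 376, 377 and 264 CPM in control mice and 410.5, 347, 469 and 461 CPM in CUS mice. CUS mouse 2 lay among the controls and the other CUS mice lay above all of them (log2 fold change 0.38, SE 0.14, edgeR FDR 0.339). After thinning, 24.2 ± 3.63% of control and 31.3 ± 4.20% of CUS nuclei had a Homer1 UMI (SD, n = 4 each), beside 47.7 ± 9.78% and 53.4 ± 5.57% without thinning. Shank1 (60.3 to 101 against 84.8 to 128 CPM), Dlg4 (65.6 to 88.8 against 80.8 to 126 CPM) and Shank2 (96.5 to 129.9 against 123 to 148 CPM) had fold changes of 0.39 (SE 0.17), 0.37 (SE 0.16) and 0.25 (SE 0.13), with edgeR FDR of 0.383, 0.383 and 0.483. Homer2 (-0.09, SE 0.17) and Dlgap1 (-0.04, SE 0.14) overlapped between groups, as did Shank3. Without CUS mouse 2, when 13.8% of 5479 genes passed the FDR, Baiap2 (0.50), Homer1 (0.44) and Dlg4 (0.42) passed. Without CUS mouse 1 no member passed, and the fold changes of Shank1 and Dlg4 were 0.25 and 0.24.

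**Figure D2:**
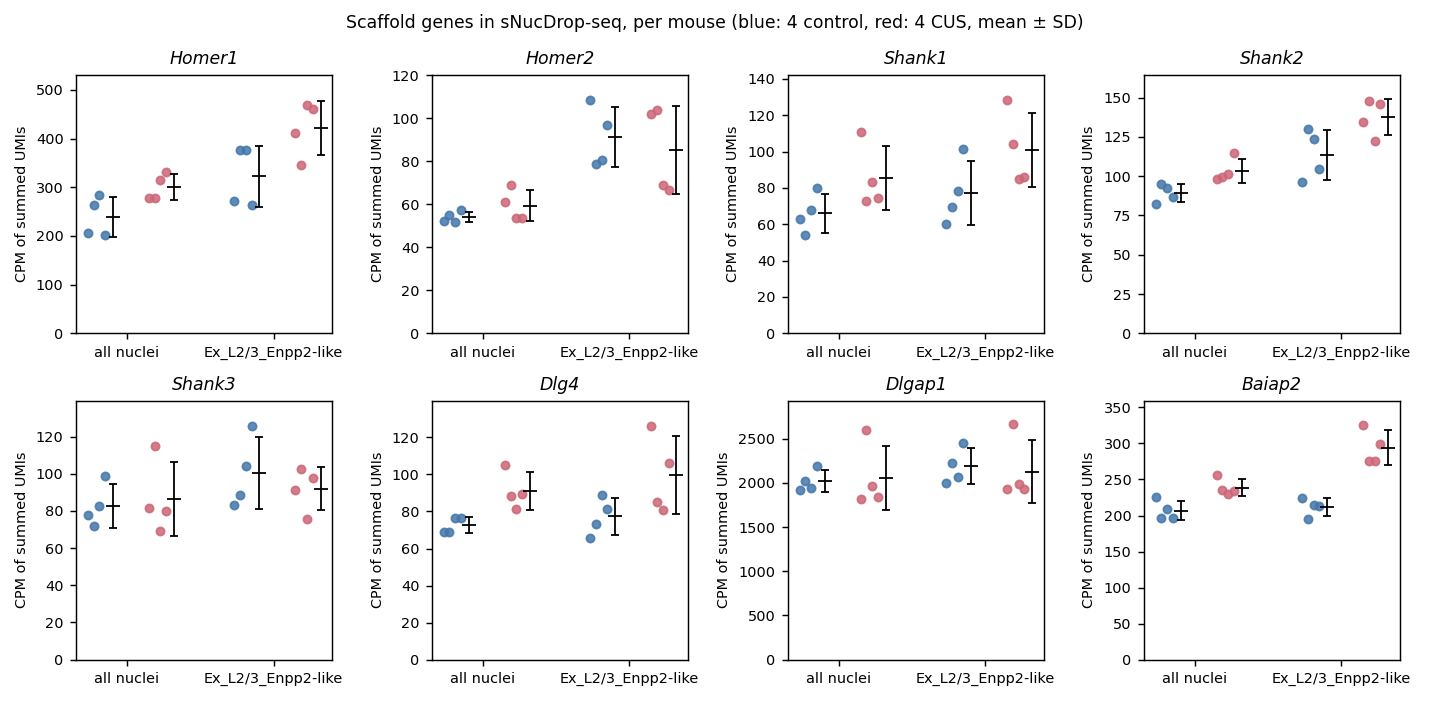
Level of 8 scaffold genes in sNucDrop-seq, in CPM of UMIs summed per mouse with TMM scaling, for 4 control mice (blue) and 4 CUS mice (red), with mean ± SD, in all nuclei and in the Ex_L2/3_Enpp2-like class. The Baiap2 panel shows CUS points at 275 to 326 CPM above control points at 195 to 224 CPM in the layer 2/3 class; Homer1 points overlap in both sets.

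**Figure D3:**
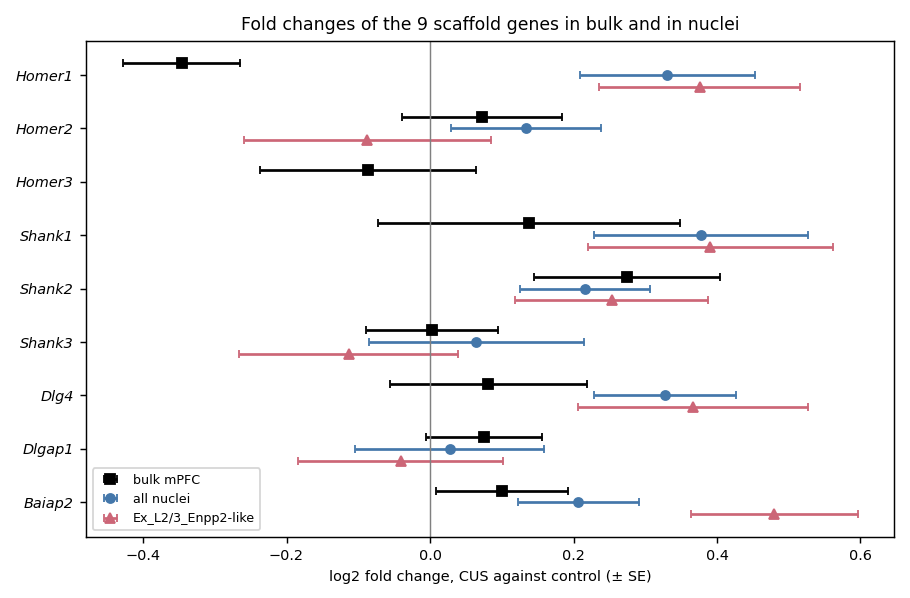
Log2 fold change of CUS against control (± SE) of the 9 genes in bulk mPFC (black squares), all nuclei (blue circles) and the Ex_L2/3_Enpp2-like class (red triangles); Homer3 passed the filter on low counts in bulk only. Homer1 stands at -0.35 in bulk and at 0.33 and 0.38 in nuclei, and Baiap2 in layer 2/3 nuclei has the largest value, 0.48.

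Across all 26 classes and clusters with over 200 nuclei, 159 member-by-class tests could be made, and Baiap2 in the layer 2/3 class was the 1 call at an FDR of 0.2, beside 0.0977% of all gene-by-class tests. Some other excitatory clusters had Baiap2 fold changes that came near this one without passing: cluster 10 (0.47, SE 0.19), cluster 3 (0.37, SE 0.15) and cluster 4 (0.34, SE 0.16). In Ex_L4-like and Ex_L6-like nuclei it was 0.11 in each, and 4 of the 19 classes tested for Baiap2 were below 0. The classes come from the same 8 mice, so their values are not independent. Of the 159 fold changes, 118 were above 0 and 41 below. Homer1 was above 0 in 20 of 26 classes and in 14 of 15 excitatory ones, with a median of 0.26 and a smallest edgeR FDR of 0.339. Dlg4 was above 0 in 17 of the 18 classes that could be tested, Shank1 in 17 of 19, Baiap2 in 15 of 19, Shank2 in 13 of 18, Shank3 in 12 of 20, Dlgap1 in 17 of 26 and Homer2 in 7 of 13. The filter on low counts sums the UMIs of both groups, so a gene near the cut can enter a class through the group in which it is higher. The share of all gene-by-class fold changes above 0 is not given here, so nothing is read from these counts of signs. Without CUS mouse 2, 6 member tests passed, beside 1.12% of the 124047 gene-by-class tests in that fit, with Dlg4 in the Ex_L4-like class (0.59) and Homer1 in the Ex_L6-like class (0.60) and cluster 4 (0.48) added to the 3 layer 2/3 calls.

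The highest Homer1 levels were in excitatory and striatal neurons, and the lowest was in an excitatory cluster. Levels by class are CPM of all UMIs of the class, without TMM scaling, as mean ± SD of the 8 mice. Homer1 had 328 ± 75.0 CPM in Ex_L2/3_Enpp2-like, 324 ± 62.4 in Striatal-like, 297 ± 62.8 in Ex_L4-like, 287 ± 77.8 in Claustrum-like, 282 ± 78.8 in Ex_L6-like, 271 ± 58.2 in Ex_L5-like and 236 ± 48.1 in Ex_L5/6-like nuclei. The unnamed clusters, numbered and given here with their leading gene, fell between 286 CPM (cluster 27, Nefm) and 82.5 CPM (cluster 23, Fyb2). Cluster 23 was Excitatory-like by its markers and ranked last, below each inhibitory and glial class. Ex_Tshz2-like nuclei were the lowest of the named excitatory classes at 112 ± 39.8 CPM. The inhibitory classes had 120.4 ± 45.9 (Inh_Vip-like), 103 ± 20.4 (Inh_Sst-like), 97.3 ± 40.6 (Inh_Ndnf-like) and 93.1 ± 15.1 CPM (Inh_Pv-like). Microglia-like nuclei had 164 ± 75.5, Oligo_Opalin-like 111 ± 48.7, Astro-like 102 ± 30.5 and OPC-like 85.4 ± 33.1 CPM. No class differed from the next in this order by more than the sum of their SDs.

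**Figure D4:**
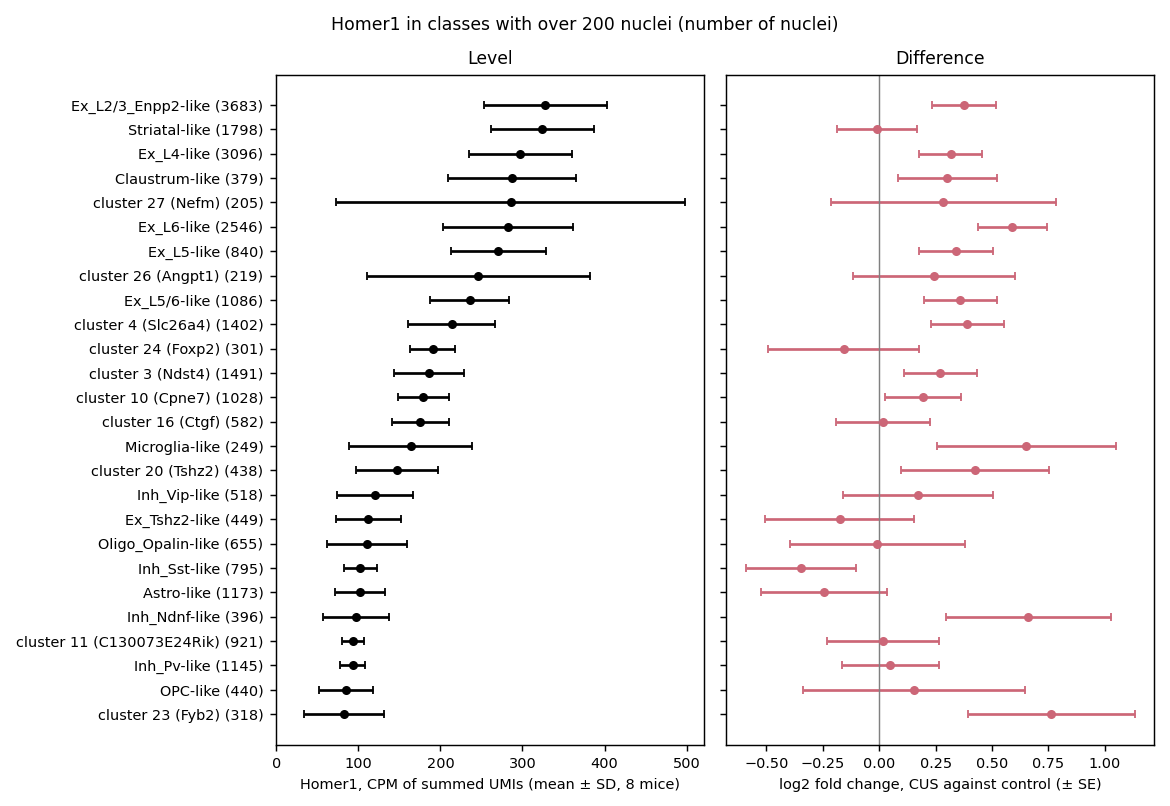
Homer1 in each class or cluster with over 200 nuclei (number of nuclei in brackets). Left, level in CPM of summed UMIs, mean ± SD of 8 mice; right, log2 fold change of CUS against control ± SE. The levels fall from 328 CPM in layer 2/3 to 82.5 CPM in cluster 23, and 20 of 26 fold changes lie right of 0.

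The members differed in where they were expressed, although none of the 9 was among the 2000 variable genes that made the clusters. Within each mouse, Excitatory-like nuclei (17839) were compared with Inhibitory-like nuclei (2854) by an exact sign-flip permutation test, two-sided, which can give no p below 0.0078 with 8 mice, and 9 such tests were made. Baiap2 had 198 ± 29.5 CPM in excitatory and 29.9 ± 7.69 CPM in inhibitory nuclei, a difference of 2.71 ± 0.31 (SD, n = 8) on the log2(CPM + 1) scale. Homer1 had 254 ± 53.9 and 101 ± 16.5 CPM (1.31 ± 0.34). Shank2 (0.97 ± 0.14), Dlg4 (0.85 ± 0.31) and Shank3 (0.44 ± 0.23) were also higher in excitatory nuclei in 8 of 8 mice. Dlgap1 ran the other way, with 1810 ± 177 and 2456 ± 338 CPM (-0.44 ± 0.08), and so did Homer2 with 50.8 ± 5.10 and 66.8 ± 8.82 CPM (-0.38 ± 0.23), both lower in excitatory nuclei in 8 of 8 mice. For Homer2 the inhibitory mean was carried by Inh_Ndnf-like (219.9 CPM) and Inh_Vip-like nuclei (118 CPM), whereas Inh_Sst-like (33.1 CPM) and Inh_Pv-like nuclei (25.9 CPM) lay below the excitatory mean. For Dlgap1, Inh_Pv-like, Inh_Ndnf-like (2269 CPM) and Inh_Sst-like nuclei (2267 CPM) lay above the excitatory mean and Inh_Vip-like nuclei below it, at 1441 CPM. Each of these 7 genes reached the smallest exact p of 0.0078, unadjusted. Shank1 (-0.10 ± 0.28, exact permutation p = 0.367) and Homer3 (0.26 ± 1.12, exact permutation p = 0.531, with 88 and 8 UMIs) did not differ beyond the spread between mice.

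Free RNA in droplets gives a few UMIs of an abundant gene in every nucleus. With nuclei thinned to 1000 UMIs, Homer1 had a UMI in 22% of Excitatory-like, 26.8% of Striatal-like and 9.31% of Inhibitory-like nuclei (95% Wilson interval 8.25 to 10.5%). The share was 9.80% in Astro-like, 8.71% in Oligo_Opalin-like and 7.46% in OPC-like nuclei, so the share in Inhibitory-like nuclei lay within the range of these glia and is not read as expression. It was higher in the 195 Microglia-like nuclei left after thinning, at 18.5% (13.6 to 24.5%). Excitatory neuron markers summed to 1823 CPM in that cluster, with 5 of 5 detected, and to 601 to 802 CPM in the other glia given here, and the part of neuronal RNA in the microglial values was not tested. Median UMIs were 2276 in Excitatory-like, 1873.5 in Inhibitory-like, 1992.5 in Striatal-like and 1212 in Astro-like nuclei, and without thinning the shares were 42.9%, 18.5%, 45.7% and 12.1%. Intervals cover counting error only. Baiap2 had a UMI in 18.2% of Excitatory-like, 35.9% of Striatal-like, 3.29% of Inhibitory-like, 4.62% of Astro-like and 11.3% of Microglia-like nuclei after thinning, and its inhibitory share, below both glial shares, is not read as expression either. Dlgap1 had a UMI in 84.6% of Inhibitory-like and 78.0% of Excitatory-like nuclei, above its shares of 65.3% in OPC-like, 57.4% in Microglia-like, 49.1% in Astro-like, 42.8% in Striatal-like and 26.6% in Oligo_Opalin-like nuclei. Dlg4 had a UMI in 6.83% of Excitatory-like and 4.02% of Inhibitory-like nuclei. Its glial shares were 8.21% in OPC-like, 6.53% in Astro-like, 4.10% in Microglia-like and 2.07% in Oligo_Opalin-like nuclei. Both neuronal shares of Dlg4 lay within this glial range, so this measure alone cannot tell its expression in neurons from free RNA. The OPC-like share rests on 22 of 268 nuclei. Whether glia express these genes themselves was not tested, so a glial share is no sure floor for free RNA. By CPM, Dlg4 was higher in Excitatory-like than in Inhibitory-like nuclei in 8 of 8 mice, as given above.

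Single classes stood out for some members. Homer2 was highest in Inh_Ndnf-like nuclei, at 219.9 ± 45.3 CPM, and this was the 1 step in the order of any member that exceeded the sum of the SDs, with Inh_Vip-like nuclei next at 118 ± 26.1 CPM. Baiap2 was highest in Striatal-like nuclei (452 ± 53.8 CPM) and, of the named cortical classes, in Ex_L6-like (299.9 ± 33.4 CPM). Dlgap1 was highest in Inh_Pv-like nuclei (2988 ± 470.0 CPM) and lowest in Striatal-like (664 ± 92.6) and Oligo_Opalin-like nuclei (514 ± 205). Shank1 reached 95.6 ± 32.8 CPM in Inh_Pv-like nuclei and 16.5 ± 11.1 CPM in Striatal-like ones, while Shank3 had 79.8 ± 16.8 CPM in Striatal-like nuclei, inside its range of 62.7 to 89.0 CPM in the named excitatory classes of layers 2 to 6. Dlg4 ranged from 96.2 ± 42 CPM in cluster 24, led by Foxp2, to 19.2 ± 12.0 CPM in Oligo_Opalin-like nuclei. Homer3 had 192 UMIs in all nuclei, of which 55 were in cluster 10 (Cpne7), 37 in Astro-like and 32 in Oligo_Opalin-like nuclei. It had 0 UMIs in 6 classes, which in Ex_L5/6-like nuclei allows up to 0.879 CPM.

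**Figure D5:**
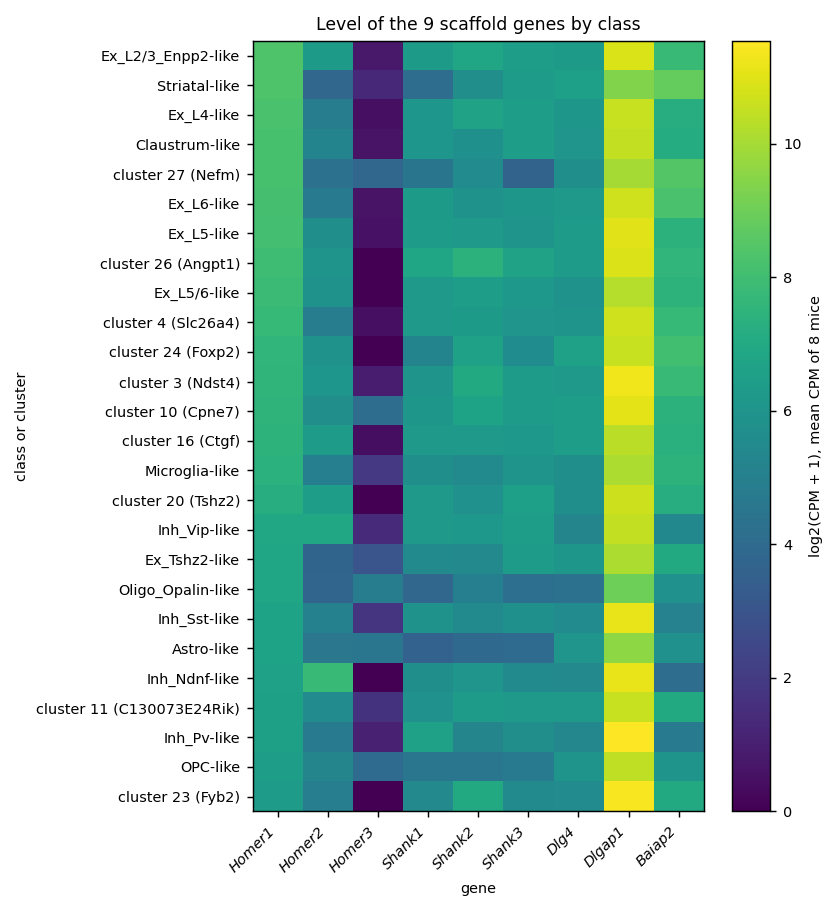
Level of the 9 genes in each class or cluster with over 200 nuclei, as log2(CPM + 1) of the mean CPM of 8 mice, with classes ordered by Homer1. The Baiap2 column is dark in the 4 inhibitory classes (16.7 to 41.1 CPM), the Homer2 column is brightest in Inh_Ndnf-like nuclei, and Homer3 is near 0 in most neurons.

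Over the 26 classes, the genes whose mean log2(CPM + 1) followed Homer1 most closely among 8288 genes were Vipr1 (Pearson's r 0.85), Adgrb1 (0.84), Ankrd33b (0.81), Fgfr1op2 (0.80) and Robo3 (0.80). Among the members, Baiap2 was nearest (0.72, rank 33), then Dlg4 (0.57), Shank2 (0.46), Shank3 (0.41) and Shank1 (0.30), while Homer2 (0.05) and Dlgap1 (-0.06) did not follow it. The points share mice and libraries and differ in depth, so these values only describe the classes.

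Other genes of the postsynaptic density, 26 partners and neighbours of the members, were tested in the same fits. In bulk, 3 of 26 rose in CUS and 0 fell at an FDR of 0.05, beside 3.29% of all genes called in either direction. Among them were Dlgap2, a paralog of Dlgap1, from 1714 ± 292 to 2261 ± 98.0 CPM (log2 fold change 0.40, SE 0.10, edgeR FDR 0.0476), and Itpr1, the IP3 receptor that Homer also binds, from 661 ± 69.8 to 803 ± 34.9 CPM (0.28, SE 0.07), just under the threshold. All CUS mice were above all control mice for both of these genes, as they were for Kalrn, a signalling protein of the dendritic spine, which did not pass (0.33, SE 0.09, edgeR FDR 0.0549). For Itpr1 the closest mice were at 762 CPM in control and 764 CPM in CUS. The share of all bulk genes with CUS mice entirely above control mice is not given here, so nothing is read from this separation. Grm5, a glutamate receptor that binds Homer, had a fold change of 0.03 (SE 0.06). The list's median was 0.05, beside 0.01 over all genes tested. Without control mouse 3 there were 8 such genes, in the fit that called 8.1% of all genes, and 0 or 1 when any other mouse was left out. In all nuclei and in the layer 2/3 class, 0 of the 21 genes tested passed an FDR of 0.2 by edgeR, with 2 at an unadjusted p below 0.05 in each, beside 8.44% of all genes in all nuclei and 11.7% in the layer 2/3 class. In all nuclei the largest changes were those of Cnksr2 (-0.31), Dynll1 (0.30) and Dlgap3 (0.26). In the layer 2/3 class they were those of Dlgap3 (0.32), Cnksr2 (-0.30) and Dlg3 (0.29). Dlgap2 and Itpr1 had fold changes of -0.08 and -0.06 in all nuclei.

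Homer1a is induced by neuronal activity, so 15 activity-regulated genes were read beside Homer1. In bulk, 4 fell and 1 rose, beside 3.29% of all genes called. Nr4a2, a nuclear receptor induced by activity, fell from 8.50 ± 1.96 to 2.53 ± 0.574 CPM (log2 fold change -1.76, SE 0.18, edgeR FDR 0.00107). Nr4a3, of the same family, fell from 67.1 ± 21.6 to 29.5 ± 5.27 CPM (-1.19, SE 0.19, edgeR FDR 0.00954). The AP-1 genes Fos (-1.05, SE 0.15, edgeR FDR 0.00567) and Fosl2 (-0.73, SE 0.13, edgeR FDR 0.0131) fell as well, while Vgf, which encodes a secreted neuropeptide precursor, rose (0.59, SE 0.14, edgeR FDR 0.0465). Homer1 had -0.35, and the median of this list was -0.17. In the layer 2/3 nuclei, 3 of the 6 genes that could be tested rose at an FDR of 0.2, namely Egr1 (0.82, SE 0.18, edgeR FDR 0.0534), Vgf (0.71, SE 0.16, edgeR FDR 0.0790) and Egr3 (0.62, SE 0.17, edgeR FDR 0.181), and 0 fell, beside 0.838% of all genes called. Nr4a1 had 0.63 (SE 0.23, edgeR FDR 0.335) and did not pass. In all nuclei the 6 tested genes were all above 0 and 0 passed by edgeR, with 4 at an unadjusted p below 0.05 beside 8.44% of all genes, the largest changes being those of Egr1 (0.66), Nr4a1 (0.65) and Egr3 (0.52). The list's median was 0.51 in all nuclei and 0.63 in layer 2/3 nuclei, over 6 genes in each, beside -0.17 over 15 genes in bulk. Of the 4 genes that fell in bulk, only Nr4a2 could be tested in all nuclei (0.17) and none in the layer 2/3 nuclei, so these medians do not cover the same genes, and whether they differed between assays was not tested.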

How the data were processed

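Nuclei from the mPFC of 4 control and 5 CUS mice (bulk nuclear RNA-seq, TruSeq Stranded Total RNA with RiboZero depletion) and from the neocortex of 4 control and 4 CUS mice (sNucDrop-seq) were compared by condition. Groups and replicate numbers were taken from the labels. The deposited values are raw counts that the authors made by mapping reads to mm10, with uniquely mapped reads (bulk) or UMIs (nuclei) counted on each gene, and the bulk files carry the genes' positions. STAR, Seurat and edgeR are named in the submitters' processing notes. Bulk reads carry no molecular identifier, so PCR copies stay in them.

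edgeR 4.0.16 under R 4.3.3 served for the bulk counts (filterByExpr, TMM, quasi-likelihood test, Benjamini-Hochberg, FDR 0.05). Of 40000 barcodes, 26730 passed filters of 600 to 5000 genes, less than 5% mitochondrial UMIs and a doublet score up to 0.2 (Scrublet in scanpy 1.11.5, expected rate 0.1, which set aside 4751 barcodes), and 12 barcodes made of a single base were dropped. They were clustered with Seurat 5.3.0 (2000 variable genes, 50 components, 20 neighbours, resolution 1). A cluster took a name with "-like" when at least 3 markers of that type were enriched 1.5-fold and no fewer than 2 of them ranked in its 10 leading genes. These cut-offs were set after the clusters were seen, without regard to condition or to the 9 genes. UMIs were summed per mouse and class for classes over 200 nuclei, and genes whose sum exceeded 10% of the nuclei were tested in the same way at an FDR of 0.2. GC content and length came from GENCODE M21. Shares were compared after random thinning of each nucleus to 1000 UMIs. The edgeR quasi-likelihood test was also run on counts simulated from the bulk, all-nuclei and layer 2/3 fits. The other tests were not tried on simulated data.

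Alternatives were edgeR's likelihood ratio test, DESeq2 1.42.0, omitting TMM factors, omitting the low-count filter, a replicate-number block, each mouse left out in turn and, for nuclei, clustering at 0.6 and 1.5, keeping doublets, and requiring 1000 genes per nucleus. Summing only Excitatory-like nuclei was added after the data had been seen. Same-numbered samples deviated together with r of 0.03 to 0.23 in bulk and -0.45 to 0.40 in nuclei, so the numbers were not taken as pairs. Counts of replicates differed beyond sampling noise in all pairs (chi-square per degree of freedom 2.67 to 24.4), and no sample was counted as a copy. The study's methods describe sNucDrop-seq in 2 batches, each with 2 control and 2 CUS mice, and a batch term in the model. They give a strong batch effect in differential expression as the reason for that term. The labels do not say which mouse was in which batch, so no batch term was fitted and no within-batch value could be given. The SEs and FDRs of the nuclei come from fits without it.

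The 9 genes, the lists of other scaffold and activity-regulated genes and the markers were chosen with earlier results of these data known. All 9 genes were named in the bulk, in all nuclei and in the layer 2/3 class. In other classes, Homer1 was named throughout and other members where they passed the FDR. Of the 2 lists, genes past the threshold and the 3 with the largest change were named. The genes most like Homer1 were the 5 with the highest correlation among genes with at least 50 CPM in a class. Grm5, and values of members in single classes given for their level, were chosen after they were seen. Of the other scaffold genes, 1 that passed in bulk is counted but not reported here.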

Additional observations from a re-analysis of the deposited data

Results flagged for a closer look

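Homer1 had opposite signs in the assays, with a log2 fold change of CUS against control of -0.35 in the bulk mPFC, 0.33 in all nuclei and 0.38 in the Ex_L2/3_Enpp2-like class. All 5 bulk CUS mice lay below the control mean and all 4 CUS mice of the nuclei lay above it. The difference between the assays was not tested.

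In the bulk CUS group, mouse 1 stood apart from the others for Shank2, with 367 CPM. In the Ex_L2/3_Enpp2-like class, CUS mouse 2 stood apart for Dlgap1, with 2664 CPM. In both, the gap to the nearest mouse took more of the group's range than Dixon's 95% value allows. Of 50 groups of values examined in this way 2 were picked out, and chance picks about 5%.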

How the results depend on the processing

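In bulk, the count of members past the FDR of 0.05 was 1, was 0 with a replicate block and ran from 0 to 4 when each mouse was left out; Homer1 lost its call without control mouse 1 or 2 or CUS mouse 1, 2, 4 or 5, at log2 fold changes of -0.36 to -0.28. Of the other scaffold genes, 3 passed in bulk, 5 with the likelihood ratio test, DESeq2 or no TMM factors, 1 with the replicate block and 0 to 8 with a mouse left out. Over all genes, bulk calls numbered 606, 1330 with the likelihood ratio test, 1413 with DESeq2, 238 with the replicate block and 1508 without control mouse 3. In all nuclei, members called ran from 0 to 5 and other scaffold genes from 0 to 7 with a mouse left out, the highest without CUS mouse 2. Over all genes, calls in all nuclei numbered 1, 18 with the likelihood ratio test and 22 with DESeq2. In the layer 2/3 class they numbered 45, 152 with the likelihood ratio test and 134 with the replicate block. With Excitatory-like nuclei only, 1 member was called by DESeq2 (Baiap2), among 48 of 5327 genes, and 4 without CUS mouse 2, among 833 of 5426. In the layer 2/3 class, 0 members were called without a filter on low counts and 0 to 3 with a mouse left out, and other scaffold genes ran from 0 to 5. Over all classes, member calls were 0 without a filter and 0 to 6 with a mouse left out. The replicate block changed no call of a member in the nuclei. With a mouse left out, signs turned in bulk for Homer2 (-0.0372 to 0.1516), Shank1 (-0.028 to 0.4812), Shank3 (-0.06 to 0.1178) and Dlg4 (-0.0226 to 0.2929), below 0 without control mouse 4 for Homer2 and Shank1 and without control mouse 1 for Dlg4, in all nuclei for Shank3 (-0.0967 to 0.1627) and Dlgap1 (-0.1069 to 0.0821), below 0 without CUS mouse 2, and in the layer 2/3 class for Homer2 (-0.1957 to 0.0323, above 0 without CUS mouse 4) and Dlgap1 (-0.1749 to 0.0183, above 0 without control mouse 4, CUS mouse 1 or CUS mouse 4). The cause was not tested. The same 7 genes differed between excitatory and inhibitory nuclei in 13 of 13 alternatives, but their p-values as reported are already the smallest the exact test can give, so nothing is read from this about stability. Allowing the members among the variable genes let none in and repeated the classes, so it is not counted as an alternative. In DESeq2, 12 adjusted values of members in classes were not given. Homer3, with 192 UMIs in all nuclei, did not pass the filter on low counts there, and without that filter its edgeR FDR was 0.988.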
